A study of Homo sapiens with 6 samples.

Results

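Fibronectin, 2 tenascins, the 5 thrombospondins and vitronectin are 9 adhesive or adhesion-modulating glycoproteins of the extracellular matrix and blood plasma, and their genes *FN1*, *TNC*, *TNXB*, *THBS1*, *THBS2*, *THBS3*, *THBS4*, *COMP* and *VTN* were followed in human lung fibroblasts. The set was chosen with earlier results of these data known. Its rows were found by symbol, and each of the 9 symbols matched 1 row with an Ensembl identifier among the 23754 features of the deposited table. All 9 had enough counts to enter the test. IMR-90 is an established line of fibroblasts from fetal lung, and the cells carried a doxycycline-inducible short hairpin RNA (sh-2, in the lentiviral vector Tet-pLKO-puro, under puromycin selection) against *ZNF469*, which encodes a zinc finger protein. RNA was sequenced to ask how ZNF469 contributes to gene regulation in these fibroblasts, in 3 libraries per group.

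The Sh-ZNF469 libraries came from cells given 2 µg/mL doxycycline for 4 days. The Control libraries came, according to the methods of the study, from the same transduced line without doxycycline, whereas the sample labels give their genotype as Wild-type. The groups differ in both the drug and the hairpin, so effects of doxycycline and of the hairpin cannot be told apart. A single hairpin was sequenced. The submitted design text calls the libraries technical replicates, so every p-value below measures only the spread between these libraries. Because RNA was pooled over all cells of a culture, fewer cells expressing a gene and less RNA per cell cannot be told apart.

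Fibronectin is a large secreted dimer that cells pull, through integrin receptors, into fibrils on which collagens and other matrix proteins assemble. Tenascins and thrombospondins are called matricellular proteins, because they act mainly on how cells hold and sense the matrix rather than as structural fibers. In lung, fibronectin and tenascin-C are laid down in excess during wound repair and fibrosis, and thrombospondin-1 can release transforming growth factor beta from its latent complex.

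The upstream sequences of *FN1*, *TNC* and *THBS1* are printed because these are the most abundant members and the ones on which the comparison turned. A RefSeq window ending just before the transcription start was found for all 9 genes, as 12 windows of 250 bases. Bases are in build GRCh38.p14 and run 5′ to 3′ on the strand of the gene, with the last base adjoining the start site. The windows are chr2:215436069-215436318 on the minus strand for *FN1*, chr9:115118158-115118407 on the minus strand for *TNC* and chr15:39580829-39581078 on the plus strand for *THBS1*. Capitals mark matches on either strand to any of 5 short motifs. The letters TATAA stand for the core of the TATA box, which positions the start of transcription. The second motif, the box named for its letters CCAAT, is known as a binding site of the factor NF-Y. The core of the GC box, bound by factors of the Sp family, was searched as GGGCGG. The full cyclic AMP response element was searched as TGACGTCA. The last motif, a core recognized by TEAD factors, was searched as GGAATG.
FN1: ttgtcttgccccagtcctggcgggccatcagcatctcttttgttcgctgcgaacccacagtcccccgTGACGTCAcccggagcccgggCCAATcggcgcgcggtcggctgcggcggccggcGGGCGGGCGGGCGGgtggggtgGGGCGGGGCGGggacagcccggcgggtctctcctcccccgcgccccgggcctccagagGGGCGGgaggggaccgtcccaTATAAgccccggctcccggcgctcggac
TNC: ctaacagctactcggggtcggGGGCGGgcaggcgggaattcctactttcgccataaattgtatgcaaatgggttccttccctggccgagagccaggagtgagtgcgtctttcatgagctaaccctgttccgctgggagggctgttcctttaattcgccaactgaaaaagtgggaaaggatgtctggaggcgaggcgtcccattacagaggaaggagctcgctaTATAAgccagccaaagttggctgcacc
THBS1: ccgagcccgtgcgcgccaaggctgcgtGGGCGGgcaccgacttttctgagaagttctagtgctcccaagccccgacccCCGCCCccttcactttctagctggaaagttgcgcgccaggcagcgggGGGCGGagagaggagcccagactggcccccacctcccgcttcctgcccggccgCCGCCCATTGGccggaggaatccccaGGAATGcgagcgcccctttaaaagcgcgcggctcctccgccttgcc

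The *FN1* window held the TATA core at 28 to 24 bases before the start, the NF-Y box at 162 to 158, the full cyclic AMP response element at 183 to 176, and 6 matches to the GC box core, of which several overlapped each other. That response element was found in 1.65% of 35116 RefSeq windows of the same length and in 1 of the 12 windows of these genes. The *TNC* window held the TATA core at 27 to 23 bases before the start and 1 GC box core, and no NF-Y box. In the GENCODE annotation *TNC* ends at 115118207, so the last part of its RefSeq window, TATA core included, lies inside that gene span. Only the last few bases of the *FN1* window lie inside the GENCODE span of *FN1*, which ends at 215436073. The *THBS1* window held no TATA core, but 4 matches to the GC box core, an NF-Y box that adjoins one of them at 66 to 62 bases before the start, and the TEAD core at 46 to 41. The TATA core occurred in 3 of the 12 windows (18.9% of all windows), the NF-Y box in 5 (32.0%), the GC box core in 7 (42.6%) and the TEAD core in 5 (11.9%). The SMAD-binding core, searched as CAGAC, was found in 7 of the 12 windows against 38.0% of all windows. The site of AP-1 factors, searched as TGANTCA on either strand, and the CArG box were found in 0 of the 12, against 6.57% and 1.16% of all windows. The motifs were counted as letters and say nothing of binding.

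The libraries held 34057675 to 36120260 counts. On the first principal component (25.7% of the variance) the groups did not overlap. The scores were −3.84, −7.97 and −11.3 in Control and 4.06, 20.3 and −1.22 in Sh-ZNF469 replicates 1, 2 and 3. Sh-ZNF469 replicate 2 stood farthest from the other libraries, and results are given below without it where they turn on it. *ZNF469* itself fell in all 3 Sh-ZNF469 libraries, from 118, 112 and 126 TMM-scaled CPM (counts scaled to a common library size) in Control to 80.4, 80.4 and 79.6 CPM (log2 fold change −0.57, standard error [SE] 0.0477, edgeR FDR = 3.31e-05). The FDR is the Benjamini-Hochberg adjusted p of edgeR's quasi-likelihood test over 13991 features, and a gene is said to have changed when it was under 0.05. All 11 fibroblast markers examined were above 1 FPKM, whereas 5 of 8 epithelial markers, 2 of 5 endothelial markers (*PECAM1* and *CDH5*) and 3 of 5 immune markers (*CD3E*, *MS4A1* and *LYZ*) were listed at 0 in all libraries. The summed epithelial level was 0.967 to 1.57 FPKM over the 6 libraries. The endothelial sum was 3.80 to 4.68 FPKM, nearly all from *TEK*, and the immune sum was 29.3 to 32.4 FPKM, nearly all from *CD68*, with overlapping groups for all 3 sums. The summed fibroblast marker level was 8530 to 8593 FPKM in Control and 7315 to 7401 FPKM in Sh-ZNF469, and 5 of the 11 markers were lower (*COL1A1*, *COL1A2*, *COL3A1*, *DCN* and *LUM*).

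*THBS1* and *TNC* rose modestly in Sh-ZNF469, none of the 9 genes fell, and *FN1*, the most heavily counted gene in every library, kept a high level that differed by a few percent and did not pass the test. Thus 2 of the 9 genes were called higher, against 0.400% of all tested features, and 0 were called lower, against 0.715% (1.12% in either direction). Because the 9 genes were chosen with earlier results of these data known, their counts are not those of a set chosen blind. The calls by limma-voom were the same 2 genes, and so were those by DESeq2. DESeq2 called 3.12% higher and 3.01% lower of the 7808 features to which it gave an adjusted p. It gave none to *TNXB*, *THBS4*, *COMP* and *VTN*, which it therefore could not call. At an unadjusted edgeR p under 0.05, 4 of the 9 were higher, against 7.31% of all features, and 0 were lower, against 7.69%. In 4 genes (*FN1*, *TNC*, *THBS1* and *THBS4*) every Sh-ZNF469 library was above every Control library, a pattern shown by 9.73% of all tested features, and in 0 was every one below, beside 10.6% (20.3% in either direction). The median log2 fold change of the 9 genes was 0.08, beside −0.0019 for all tested features, and 8 of the 9 estimates were above 0. Abundant genes pass the test at smaller changes: among the 144 features at or above the mean level of *TNC*, 6.25% were called higher and 18.8% were higher without overlap. Those 144 include *FN1*, *THBS1* and *TNC* themselves. By the criteria of the study, which also require an absolute log2 fold change over 1, 0 of the 9 genes were called. In this fit those criteria called only 2 of all tested features higher and 4 lower. They did not call *ZNF469* itself (log2 fold change −0.57), so the 0 says little about these genes.

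Levels are compared between genes by the deposited FPKM, which divides by transcript length. In Control the order was *FN1*, *THBS1*, *TNC*, *THBS2*, *THBS3*, *COMP*, *VTN*, *THBS4* and *TNXB*, and it was the same in Sh-ZNF469. No neighbors in this order overlapped among the 3 Control libraries or among the 3 Sh-ZNF469 libraries. The levels spanned from 2205 ± 26.2 FPKM (SD, n = 3) for *FN1* to 0.0223 ± 0.00389 FPKM (SD, n = 3) for *TNXB* in Control. *FN1* made up 85.2% to 86.3% of the summed FPKM of the 9 genes, and *THBS1* 93.1% to 93.8% of the summed FPKM of the 5 thrombospondins.

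**Figure D1:**
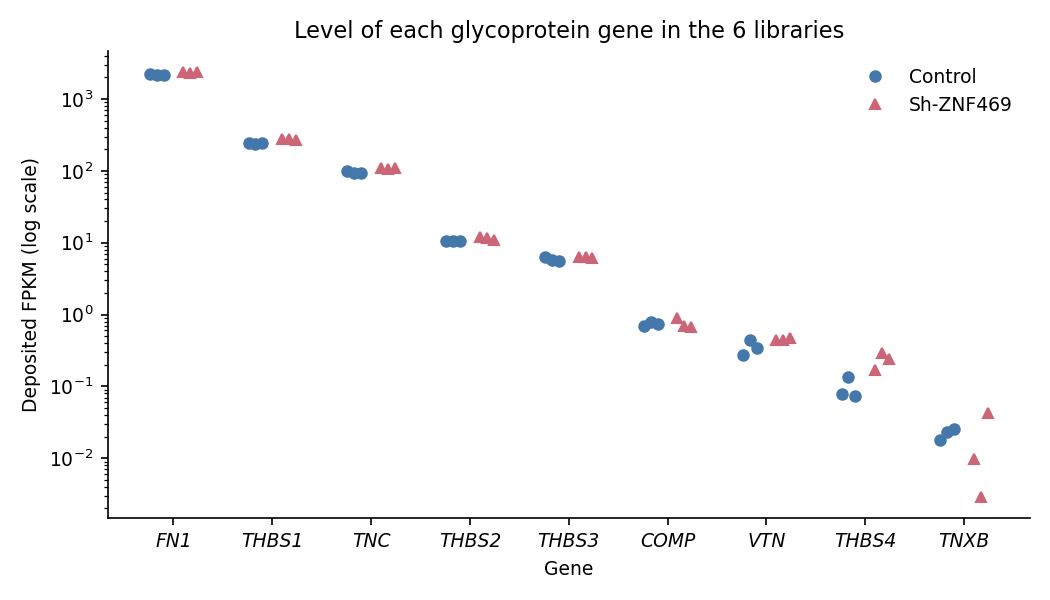
Deposited FPKM of each of the 9 genes on a log axis, with 1 point per library, circles for the 3 Control and triangles for the 3 Sh-ZNF469 libraries. The genes run from *FN1* near 2205 FPKM to *TNXB* near 0.0223 FPKM, and the largest scatter among libraries is seen in *TNXB*.

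*FN1* (ENSG00000115414, chromosome 2, 215360440 to 215436073 on the minus strand, 46 exons in its canonical transcript) encodes fibronectin. It was counted at 19830, 19405 and 19868 CPM in Control replicates 1, 2 and 3 and at 20804, 20090 and 20713 CPM in Sh-ZNF469 replicates 1, 2 and 3. The lowest Sh-ZNF469 library, replicate 2, lay just above the highest Control library. It took 1.93% to 2.09% of all counts, ranked 1 by counts in each of the 6 libraries, and ranked 10 to 12 by FPKM. The mean was 19701 ± 257 CPM (SD, n = 3) in Control and 20535 ± 388 CPM (SD, n = 3) in Sh-ZNF469, a log2 fold change of 0.06 (95% interval 0.03 to 0.09) with an edgeR FDR of 0.0775. The interval therefore holds only small increases, and the Sh-ZNF469 level was estimated at 104% of Control. Without Sh-ZNF469 replicate 2 the log2 fold change was 0.08 with an edgeR FDR of 0.00615, which passed the threshold. It also passed with library-size scaling (0.08, edgeR FDR = 0.00597) and with a trend on GC content removed (0.08, edgeR FDR = 0.000466), and did not when a trend on transcript length was removed (0.02, edgeR FDR = 0.684). Nor did *FN1* pass with DESeq2 (FDR = 0.0524), limma-voom (FDR = 0.130), upper-quartile scaling (edgeR FDR = 0.0846) or RLE scaling (edgeR FDR = 0.0636). On leaving out any other library it did not pass either, with an edgeR FDR of 0.261 at most.

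*TNC* (ENSG00000041982, chromosome 9, 115019575 to 115118207 on the minus strand, 28 exons) encodes tenascin-C, a hexameric protein that is scarce in healthy adult lung and abundant in healing and fibrotic tissue. It was counted at 769, 738 and 774 CPM in Control and at 845, 818 and 859 CPM in Sh-ZNF469 replicates 1, 2 and 3. All Sh-ZNF469 libraries were higher than all Control libraries, and replicate 2 was again the lowest in its group. The mean rose from 760 ± 19.6 to 841 ± 20.7 CPM (SD, n = 3 each), a log2 fold change of 0.15 (SE 0.0302, edgeR FDR = 0.0376), or 111% of Control. The call was near the threshold. With the edgeR fit it was lost on leaving out any 1 library other than Sh-ZNF469 replicate 2, with an FDR of 0.172 at most, while without Sh-ZNF469 replicate 2 the log2 fold change was 0.17 (edgeR FDR = 0.0163). It was also lost when the trend on transcript length was removed (0.11, edgeR FDR = 0.158).

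The tenascin-X gene *TNXB* (ENSG00000168477, chromosome 6, 32041153 to 32115334 on the minus strand), whose product is a tenascin of skin, tendon and vessel wall tied to collagen fibril spacing, was near the limit of detection. It had 9, 13 and 12 counts in Control and 6, 2 and 24 counts in Sh-ZNF469 replicates 1, 2 and 3. Both the highest and the lowest of the 6 libraries were Sh-ZNF469 libraries. The log2 fold change was −0.14 with a 95% interval from −1.62 to 1.35 (edgeR FDR = 0.949), and it turned to 0.14 without Sh-ZNF469 replicate 1 and to 0.35 without replicate 2. Without replicate 3 it was −1.51, and at this depth the interval left room for sizable changes of either sign. Its partial copy *TNXA* matched no deposited feature by symbol and so was not analysed here, and reads shared with it could not be separated. *TNXB* also shares 71 bases with *ATF6B* on the same strand, which had 3539 to 3894 counts, so the few *TNXB* counts are uncertain.

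*THBS1* (ENSG00000137801, chromosome 15, 39581079 to 39599466 on the plus strand, 22 exons) encodes thrombospondin-1, a trimeric protein that binds the receptors CD36 and CD47. It was counted at 2087, 2015 and 2145 CPM in Control and at 2342, 2325 and 2296 CPM in Sh-ZNF469. The groups did not overlap, and the Sh-ZNF469 libraries lay closer together than the Control libraries. The mean rose from 2082 ± 65.5 to 2321 ± 23.6 CPM (SD, n = 3 each), a log2 fold change of 0.16 (SE 0.0248, edgeR FDR = 0.00629), or 111% of Control. It remained above 0 under each alternative, from 0.12 to 0.18, but the edgeR FDR reached 0.0602 without Control replicate 1 and 0.0595 without Sh-ZNF469 replicate 1. Without Sh-ZNF469 replicate 2 it was 0.0109. *FSIP1*, a gene that overlaps *THBS1* on the opposite strand, had 33 counts at most, so in this library type, which keeps no strand, its reads could add little to *THBS1*.

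**Figure D2:**
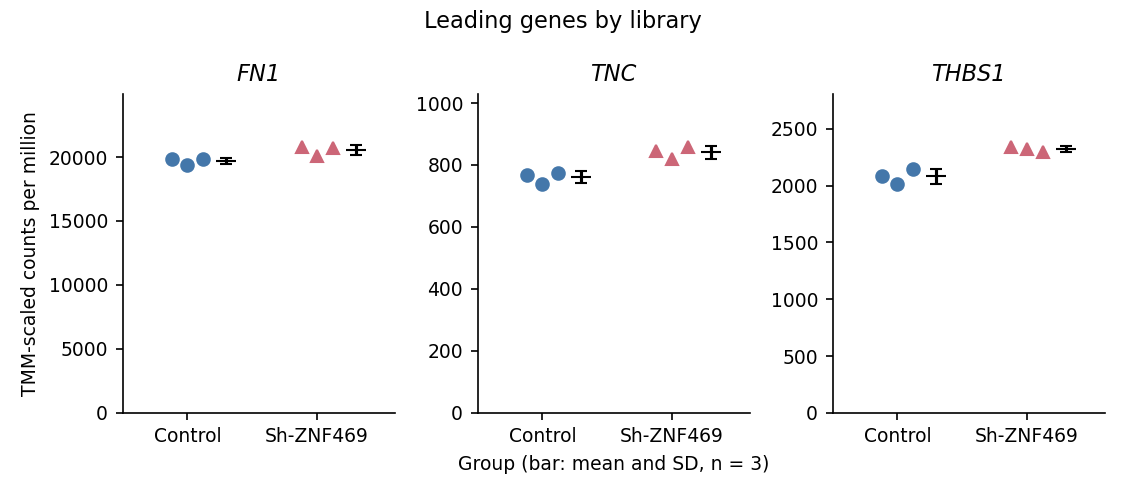
TMM-scaled CPM of *FN1*, *TNC* and *THBS1* in each library, with Control as circles, Sh-ZNF469 as triangles and the group mean with SD (n = 3) as a bar beside the points. All axes start at 0, and in each panel the 3 Sh-ZNF469 libraries lie above the 3 Control libraries by a small part of the level.

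*THBS2* (ENSG00000186340, chromosome 6, 169215780 to 169254050 on the minus strand) encodes thrombospondin-2, the closest relative of thrombospondin-1 and a regulator of collagen fibril assembly. It was counted at 65.8, 68.4 and 66.9 CPM in Control and at 74.0, 70.9 and 67.3 CPM in Sh-ZNF469. Sh-ZNF469 replicate 3 lay within the Control range and the other 2 above it. The log2 fold change was 0.08 with a 95% interval from −0.02 to 0.18 (edgeR FDR = 0.462). *THBS3* (ENSG00000169231, chromosome 1, 155195588 to 155209051 on the minus strand), one of the pentameric thrombospondins, was counted at 22.1, 20.3 and 19.6 CPM in Control and at 21.7, 21.1 and 20.9 CPM in Sh-ZNF469. The Sh-ZNF469 values all lay inside the Control range, with a log2 fold change of 0.04 and a 95% interval from −0.11 to 0.19 (edgeR FDR = 0.822). It shares 357 bases with *MTX1* on the opposite strand, which had 754 to 910 counts.

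*THBS4* (ENSG00000113296, chromosome 5, 79991311 to 80083287 on the plus strand), a pentameric thrombospondin known from tendon and muscle, was barely expressed at 0.0967 ± 0.0352 FPKM (SD, n = 3) in Control. It had 10, 18 and 10 counts in Control and 22, 36 and 31 counts in Sh-ZNF469. All Sh-ZNF469 libraries were above all Control libraries. The log2 fold change was the largest of the 9, at 1.18 (SE 0.397, 95% interval 0.32 to 2.03), but did not pass the test (edgeR FDR = 0.188; unadjusted p = 0.0111, not corrected for the 13991 features). Over its alternatives the adjusted p ranged from 0.145 to 0.471.

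*COMP* (ENSG00000105664, chromosome 19, 18782773 to 18791305 on the minus strand) encodes cartilage oligomeric matrix protein, the pentameric thrombospondin of cartilage that links collagens. It had 71, 76 and 80 counts in Control and 95, 71 and 73 counts in Sh-ZNF469. Replicate 1 of Sh-ZNF469 was the highest and the other 2 were at or near the lowest Control library. The log2 fold change was 0.03 with a 95% interval from −0.40 to 0.45 (edgeR FDR = 0.963), and it was −0.12 without Sh-ZNF469 replicate 1. *VTN* (ENSG00000109072, chromosome 17, 28367284 to 28373091 on the minus strand) encodes vitronectin, a plasma protein made mainly by liver that fibroblasts take up from serum. It had 22, 37 and 29 counts in Control and 38, 37 and 40 counts in Sh-ZNF469. The groups overlapped at 37 counts, and the log2 fold change of 0.34 had a 95% interval from −0.30 to 0.98 (edgeR FDR = 0.638). The gene lies within *SARM1* on the opposite strand, which had 490 to 600 counts, so the few *VTN* counts are uncertain.

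**Figure D3:**
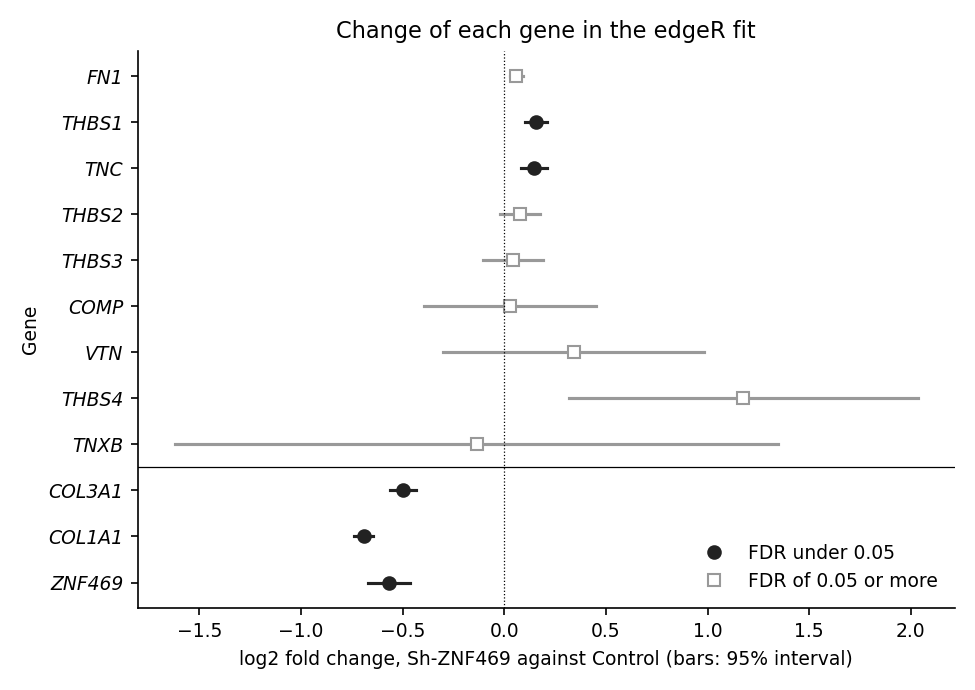
Log2 fold change of Sh-ZNF469 against Control for the 9 genes, with *COL3A1*, *COL1A1* and *ZNF469* under the line. Bars are 95% intervals of the edgeR fit, and filled points (*THBS1*, *TNC* and the 3 genes under the line) had an FDR under 0.05. The intervals widen from *FN1* to *TNXB* alongside falling counts.

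As single values, *FN1*, *TNC*, *THBS1* and *THBS4* each reached p = 0.1 by an exact two-sided permutation test on log2 CPM, which is the smallest that 3 libraries against 3 allow. The exact permutation p was 0.2 for *THBS2* and *VTN*, 0.5 for *THBS3*, 0.8 for *TNXB* and 1 for *COMP*.

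Ratios within a library do not depend on the scaling between libraries, and they set the glycoproteins beside the fibrillar collagens. *COL1A1* (a chain of type I collagen) fell by 0.69 on the log2 scale (edgeR FDR = 1.66e-09) and *COL3A1* (type III collagen) by 0.50 (edgeR FDR = 1.13e-06). The count ratio of *FN1* to *COL1A1* was 1.27 ± 0.0171 (SD, n = 3) in Control and 2.14 ± 0.0216 (SD, n = 3) in Sh-ZNF469, and per transcript length, as a ratio of FPKM, it was 1.06 ± 0.0152 and 1.79 ± 0.0174. The RNA of fibronectin and of this collagen chain thus stood at nearly equal FPKM in Control, and the *FN1* level was clearly above that of *COL1A1* in all 3 Sh-ZNF469 libraries. The count ratio of *FN1* to *COL3A1* was 25.1 ± 0.281 in Control and 37.0 ± 0.376 in Sh-ZNF469 (SD, n = 3 each).

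Among the glycoproteins the ratios moved far less. On the log2 scale the *THBS1* to *FN1* count ratio was higher by 0.10 and the *TNC* to *FN1* ratio by 0.09, both without overlap between the groups. The *THBS1* to *THBS2* ratio differed by 0.08 with overlapping groups (exact permutation p = 0.3). Each of the other 4 ratios, including the 2 with collagens (differences of 0.75 for *COL1A1* and 0.56 for *COL3A1*), had an exact two-sided permutation p of 0.1, the smallest possible, and 0.125 after Benjamini-Hochberg adjustment over the 5 ratios tested.

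**Figure D4:**
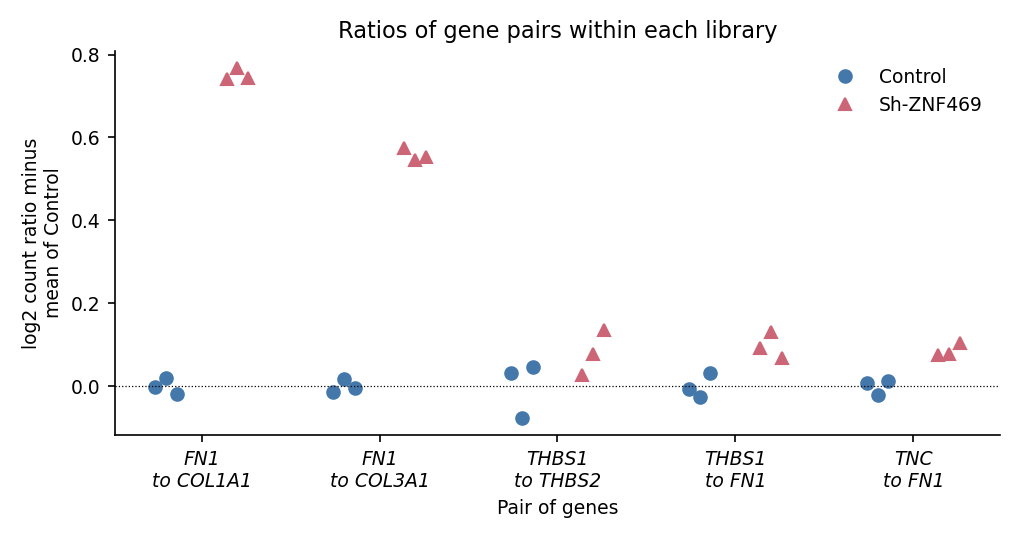
Log2 ratio of counts for 5 gene pairs in each library, minus the mean of the Control libraries, with Control as circles and Sh-ZNF469 as triangles. The ratios of *FN1* to *COL1A1* and to *COL3A1* stand apart by 0.75 and 0.56, while the 3 ratios among glycoproteins differ by 0.08 to 0.10.

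The receptors through which cells hold these proteins were listed as 20 genes, integrin chains and others, of which 16 could be tested. None was called in either direction by edgeR, while 5 were higher and 0 lower at an unadjusted p under 0.05 and DESeq2 called 2 higher (*ITGAV* and *CALR*) and 0 lower. Over all tested features the edgeR shares were 0.400% higher and 0.715% lower, and the unadjusted shares 7.31% and 7.69%. Those of DESeq2, over the 7808 features with an adjusted p, were 3.12% and 3.01%. Of the 16, 11 estimates were above 0 and 5 below, and their median log2 fold change was 0.05. *ITGB1*, the beta chain shared by most fibronectin-binding integrins, stood at 1159 ± 54.1 FPKM in Control and 1266 ± 65.1 FPKM in Sh-ZNF469 (SD, n = 3 each; log2 fold change 0.09, edgeR FDR = 0.181). *ITGA5*, its partner in the classical fibronectin receptor, had a log2 fold change of 0.02 (edgeR FDR = 0.774), *CALR*, calreticulin, a thrombospondin-1 binding partner, 0.07 (edgeR FDR = 0.189), and *PLAUR*, the urokinase receptor, −0.04 (edgeR FDR = 0.680). *ITGAV*, the alpha chain of the vitronectin receptors, was named after its values were seen: it had a log2 fold change of 0.22 and an edgeR FDR of 0.0587, and passed the threshold in 6 of 18 alternatives, DESeq2 among them (FDR = 0.000291).

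Of 20 genes for fibronectin matrix assembly and binding partners, all tested, 1 was called higher and 1 lower by edgeR, against 0.400% and 0.715% of all features, and the median log2 fold change was −0.01. At an unadjusted p under 0.05, 3 were higher and 2 lower, against 7.31% and 7.69% of all features. DESeq2 called 2 higher and 1 lower, against 3.12% and 3.01% of the features with an adjusted p. *TNS1*, tensin 1, which links integrins to actin, was named after its values were seen: its log2 fold change was 0.15 with an edgeR FDR of 0.0774 and a DESeq2 FDR of 0.00093. *FSTL1*, a secreted glycoprotein, fell from 2115, 2082 and 2018 CPM in Control to 1882, 1927 and 1837 CPM in Sh-ZNF469 (log2 fold change −0.14, edgeR FDR = 0.0183), without overlap. Its call was lost in 7 of 18 alternatives, library-size scaling among them (−0.12, edgeR FDR = 0.0555). When a library was left out its edgeR FDR reached 0.143, the highest value being without Control replicate 1. The 4 most abundant others were *ANXA2* (−0.01), *IGFBP5* (0.01), *ZYX* (−0.10) and *ILK* (−0.07), by log2 fold change, with edgeR FDR values from 0.236 to 0.880.

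Among 19 other matricellular and adhesive glycoproteins, 13 could be tested. Of these, 2 were called higher and 0 lower by edgeR, against 0.400% and 0.715% of all features. At an unadjusted p under 0.05, 3 were higher and 2 lower, against 7.31% and 7.69%. DESeq2 called 2 higher (*TGFBI* and *EMILIN1*) and 1 lower (*CCN1*), against 3.12% and 3.01% of the features with an adjusted p. It gave no adjusted p for *POSTN*. The median log2 fold change was −0.02. *POSTN*, periostin, rose from 10.4, 10.3 and 9.66 CPM to 15.6, 16.4 and 14.0 CPM (log2 fold change 0.60, edgeR FDR = 0.00595). *TGFBI*, a secreted integrin-binding protein related to periostin, rose from 1993, 1961 and 2015 CPM to 2250, 2228 and 2290 CPM (0.18, edgeR FDR = 0.000837). In both genes every Sh-ZNF469 library was above every Control library. The abundant *MFGE8* (−0.06), *CCN2* (0.01), *CCN1* (−0.10) and *EMILIN1* (0.09) did not pass the edgeR test, with FDR values from 0.160 to 0.893. Of 17 proteases that can cut these glycoproteins, 13 could be tested and none was called by edgeR. At an unadjusted p under 0.05, 1 was higher and 4 lower, against 7.31% and 7.69% of all features. DESeq2 called 1 lower (*PLAU*), against 3.01% of the features with an adjusted p. The median log2 fold change of the proteases was −0.04. The most abundant were *MMP14* (−0.04), *PLAU* (−0.10), *MMP2* (−0.07) and *ADAMTS1* (−0.03), with edgeR FDR values from 0.150 to 0.659.

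Over the 4 lists, 3 of 62 tested genes were called higher and 1 lower by edgeR, beside 0.400% and 0.715% of all features. At an unadjusted p under 0.05, 12 of the 62 were higher and 8 lower, beside 7.31% and 7.69%. DESeq2, which gave no adjusted p to some of the 62 (*POSTN* among them), called 6 higher and 3 lower. Its shares were 3.12% and 3.01% of the 7808 features given an adjusted p. Beside the 4 lists, 4 smooth muscle markers had a summed level of 985 to 1013 FPKM in Control and 1076 to 1147 FPKM in Sh-ZNF469, mostly *ACTA2*. None of the 4 was called by edgeR, against 0.400% higher and 0.715% lower of all features. The log2 fold change was 0.42 for *MYH11* (edgeR FDR = 0.355), 0.05 for *CNN1* (edgeR FDR = 0.672) and −0.18 for *DES* (edgeR FDR = 0.898). The log2 fold change of *ACTA2* was 0.12, with every Sh-ZNF469 library above every Control library, an edgeR FDR of 0.0774 and a DESeq2 FDR of 0.00126. The part of these markers in the changes of the glycoproteins was not tested.

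The genes most like *FN1* in pattern over the 6 libraries, by Pearson r of log2 CPM among 5537 candidate genes, were *STK35* (r = 0.976), *ITGB3* (r = 0.973), the beta chain of a vitronectin receptor, and *TNC* (r = 0.968). Those most like *TNC* were *EMILIN1* (r = 0.985), *NLRP1* (r = 0.980) and *ALDH18A1* (r = 0.979), and those most like *THBS1* were *ENC1* (r = 0.998), *MORC3* (r = 0.993) and *PEAK1* (r = 0.992). These r values are descriptions over 6 libraries in 2 groups, selected as the highest of many.

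The deposited FPKM were scaled by the authors and carry no TMM factors. Their mean log2 value was higher in Sh-ZNF469 than in Control by 0.10 for *FN1*, 0.18 for *TNC* and 0.19 for *THBS1*. Each difference was above the value from TMM-scaled counts.

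**Figure D5:**
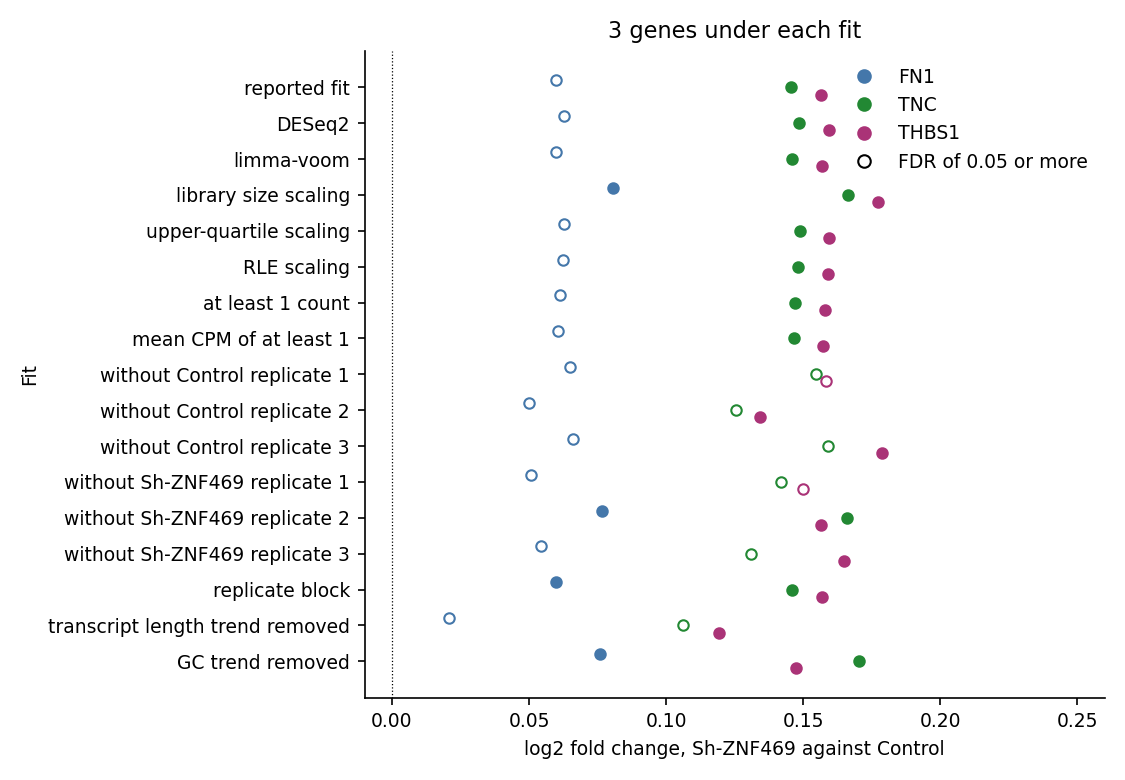
Log2 fold change of *FN1*, *TNC* and *THBS1* under the reported fit and each alternative fit, with filled points where the FDR was under 0.05. All values lie above 0, *THBS1* between 0.12 and 0.18, *TNC* between 0.11 and 0.17 and *FN1* between 0.02 and 0.08.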

How the data were processed

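The authors filtered reads on quality and, per the labels, used HISAT2 and StringTie with build GRCh38; versions, the annotation and the counting step are not given in the sources used here. The deposited counts are whole numbers of reads per gene, not normalized, and the authors also deposited FPKM, which served only to compare levels between genes. The poly(A) library kit keeps no strand. The table held 23754 features after 17 stray lines were dropped; unannotated loci took 0.938% to 0.997% of counts. Counts were fitted with edgeR 4.0.16 in R 4.3.3 (filterByExpr with a minimum count of 10, TMM, quasi-likelihood test, no covariates, Benjamini-Hochberg over 13991 features). At 34057675 to 36120260 counts per library, counting error is small for *FN1*, *TNC* and *THBS1* and limits *THBS4*, *VTN* and *TNXB*. Standard errors were derived from the F statistic. Count ratios used a prior of 0.5. The genes followed and the lists were chosen with earlier results of these data known, and named genes are those of the lists with an FDR under 0.05 and the 4 most abundant others by FPKM, and *ZNF469*, *COL1A1*, *COL3A1* and genes most like *FN1*, *TNC* and *THBS1* with a mean log2 CPM over 5. Alternatives were DESeq2 1.42.0, limma-voom (limma 3.58.1), 3 scalings, 2 filters, 2 thresholds, leaving out each library, a replicate block and removal of a lowess trend (span 0.3) of counts on the length or on the GC content of transcripts. Within a group, chi-square per degree of freedom between libraries was 4.55 to 8.17, above sampling noise, so none was a duplicate. Gene positions are from GENCODE 44, possibly another release than that of the authors. In simulated counts for this comparison, 78% of the changed genes were called (73% at an absolute log2 fold change of 0.5). Of the calls, 3.70% were false. The 13814 features tested there held 196 of the changed genes, and the others were counted as missed. Changes smaller than 0.5 were not simulated, so recovery at the sizes seen for *FN1*, *TNC*, *THBS1* and *THBS2* was not tested. *TNXA* and antisense genes of the thrombospondins matched no deposited feature by symbol and so were not analysed here. The result of 1 gene of the lists, which entered every test and count, is not reported here.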

Additional observations from a re-analysis of the deposited data

How the results depend on the processing

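Of 155 refitted values of the 9 genes, 137 kept both their direction and their side of the threshold, 11 lost a call, 4 gained one and 3 reversed; the cause was not tested. The number of the 9 genes called higher, 2 as reported, was 1 at an FDR under 0.01 (*THBS1*), 1 with the transcript length trend removed, 0 with an absolute log2 fold change over 1, and 0 to 3 on leaving out a library (0 without Control replicate 1 or Sh-ZNF469 replicate 1, and 3 without Sh-ZNF469 replicate 2). None was called lower in any setting. All features called higher and lower, 56 and 100, numbered 244 and 235 with DESeq2, 88 and 77 with library-size scaling, 127 and 163 with at least 1 count, 19 and 54 at an FDR under 0.01, 2 and 4 with the fold criterion added, 127 and 161 with the GC trend removed, and 20 to 69 and 54 to 92 on leaving out a library. Calls among receptors and partners, 3 higher and 1 lower, numbered 6 and 3 with DESeq2, 5 and 0 with library-size scaling, 5 higher with at least 1 count, 7 higher with the GC trend removed, 0 lower at an FDR under 0.01, 0 and 0 with the fold criterion, and 3 to 4 and 0 to 1 on leaving out a library. With the fold criterion *ZNF469* (−0.57) was not called. With the replicate number as a block, 135 features were higher and 157 lower, 6 receptors and partners were higher and *FN1* was called (0.06, edgeR FDR = 0.00334); same-numbered libraries had correlated deviations of only −0.027 to 0.068, so they share a number and were not treated as pairs. Reversals were *COMP* (−0.12 to 0.10 over libraries left out), *TNXB* (−1.51 to 0.35), *ANXA2* (0.0117 with library-size scaling, 0.0320 with the length trend removed and −0.0174 to 0.0081 on leaving out a library), *PLAUR* (0.0037) and *IGFBP5* (−0.0185) with the length trend removed, and *MFGE8* (0.0042) and *MMP14* (0.0182) with the GC trend removed. All 35 values of the ratios kept their direction. A filter at a mean CPM of 1 gave no value for *THBS4*, *TNXB* and *VTN*, and DESeq2 gave no adjusted p for them, *COMP* and *POSTN*.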
